A study of Mus musculus with 9 samples.

Results

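The genes described are 32 genes of fatty acid oxidation and lipid handling, taken by gene symbol from a fixed list. They cover fatty acid uptake and storage, activation to acyl-CoA, entry into mitochondria through carnitine, mitochondrial and peroxisomal beta-oxidation, electron transfer and the switch between fuels. Of the 32 listed genes, 30 had a probe set annotated to them alone. Acsl1 and Acsl3, which encode long-chain acyl-CoA synthetases, had no such probe set in the annotation used here, so their expression is not analysed. Expression was measured in TAMH cells, a hepatocyte line established from transgenic mice that overexpress TGF-alpha; the labels give the strain as C57BL/6 and the tissue as liver. Cells received control culture medium, acetaminophen (APAP) at 2 mM or its meta regioisomer (AMAP) at 2 mM, and were harvested after 2, 6 or 24 h. The hydroxyl group sits at the para position of the ring in APAP and at the meta position in AMAP, and the study's title calls AMAP the less hepatotoxic of the pair. Each of the 9 combinations of treatment and time was measured on 1 Affymetrix mouse array, from 2 dishes of confluent cells, and the design text calls the study preliminary. All 9 groups share this one line, which limits them as a model of normal hepatocytes.

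Fatty acids enter hepatocytes through carriers such as Cd36, are bound by Fabp1, and are joined to coenzyme A by acyl-CoA synthetases. Cpt1a moves the acyl group onto carnitine at the outer mitochondrial membrane, Slc25a20 carries acylcarnitine across the inner membrane, and Cpt2 returns the acyl group to coenzyme A inside. There, repeated rounds of dehydrogenation, hydration, a further dehydrogenation and thiolysis release acetyl-CoA, and the electrons of the opening step pass through the electron transfer flavoprotein to the respiratory chain. Peroxisomes shorten very long and branched chains by a parallel route. Many genes of both routes are targets of the nuclear receptor PPAR alpha, which fasting and fatty acids activate in liver. In APAP overdose the liver is injured through a reactive metabolite that binds mitochondrial proteins, and disturbed fatty acid oxidation is a known feature of that injury.

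Values are log2 units per probe set, so a difference of 1 is 2-fold, and a gene was represented by its brightest probe set over the 9 arrays. Of 12393 named genes, 6700 had a mean of at least 5.67 and are called expressed. Of the 30 measured members, 28 were expressed, while Acot2 and Ehhadh lay below that minimum, with means of 4.96 and 5.22. Counts below are over the 28 expressed members. Each group is 1 array, so same-time differences could not be checked against replicates and are given without a p. Differences were counted from 1.5-fold and from 2-fold, provided the brighter array reached 5.66, the median of all values. The share of the 6700 expressed genes that met the same rule is printed beside each count.

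The arrays of AMAP at 24 h and of APAP at 6 and 24 h stood apart from the other 6. On these 3 the middle minus the 3′ probe set of the spiked dap control was -1.94 to -1.58 log2, against -0.60 to -0.44 on the others. The lower quartile of all probe sets was 3.82 to 3.92 on these 3 arrays and 3.50 to 3.63 on the rest. Every 2 h comparison, and that of AMAP with control at 6 h, is free of these arrays, and all other same-time comparisons contain at least 1 of them. Probe sets still disagreed in that of AMAP with control at 6 h. There, other probe sets of the members had the sign of the brightest one in only 3 of 11. The part of this array difference in the results at 6 and 24 h was not tested. Hepatocyte markers were expressed in 8 of 8 measured genes, with a mean per array between 10.01 and 10.69, which fits the label. Adipocyte markers, which would share lipid genes with the members, were expressed in 0 of 4 measured genes, and Adipoq had a mean of 2.91. Endothelial markers were expressed in 0 of 5 genes, macrophage markers in 1 of 5 (Cd14) and stellate cell and fibroblast markers in 1 of 6 (Dcn).

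The question of the 2 h comparison is how expression differs soon after exposure. At 2 h, 26 of 28 expressed members were lower with APAP than in control medium, and the members' median difference was -0.40 log2. Over all 6700 expressed genes the median was -0.01, and 52.0% were lower. All 10 members of mitochondrial beta-oxidation, all 4 of the carnitine route, all 3 of electron transfer and all 3 expressed peroxisomal members were lower. With AMAP 23 of 28 were lower than control, by a smaller median of -0.14, and 50.9% of all genes were. Pdk4 and Angptl4 were the members higher with APAP. Acsl5 lay level with control, at -0.00, and turned to the higher side when each array was centred on its median, which left 25 lower. In these cultures fewer cells of a type and less RNA per cell cannot be told apart. Cholangiocyte markers, of which 3 of 4 measured genes were expressed, had their lowest mean on the control 2 h array (6.42) and their highest on the APAP 2 h array (7.33), with 6.92 for AMAP at 2 h. Krt7 and Krt19 read 8.75 and 6.585 in control and 10.19 and 8.69 with APAP at 2 h. Sox9 and Epcam were nearly level, at 6.24 and 4.12 in control and 6.30 and 4.14 with APAP. The hepatocyte marker mean was 10.6 in control, 10.2 with APAP and 10.1 with AMAP at 2 h. The part of either marker list in the members' shift was not tested.

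**Figure D1:**
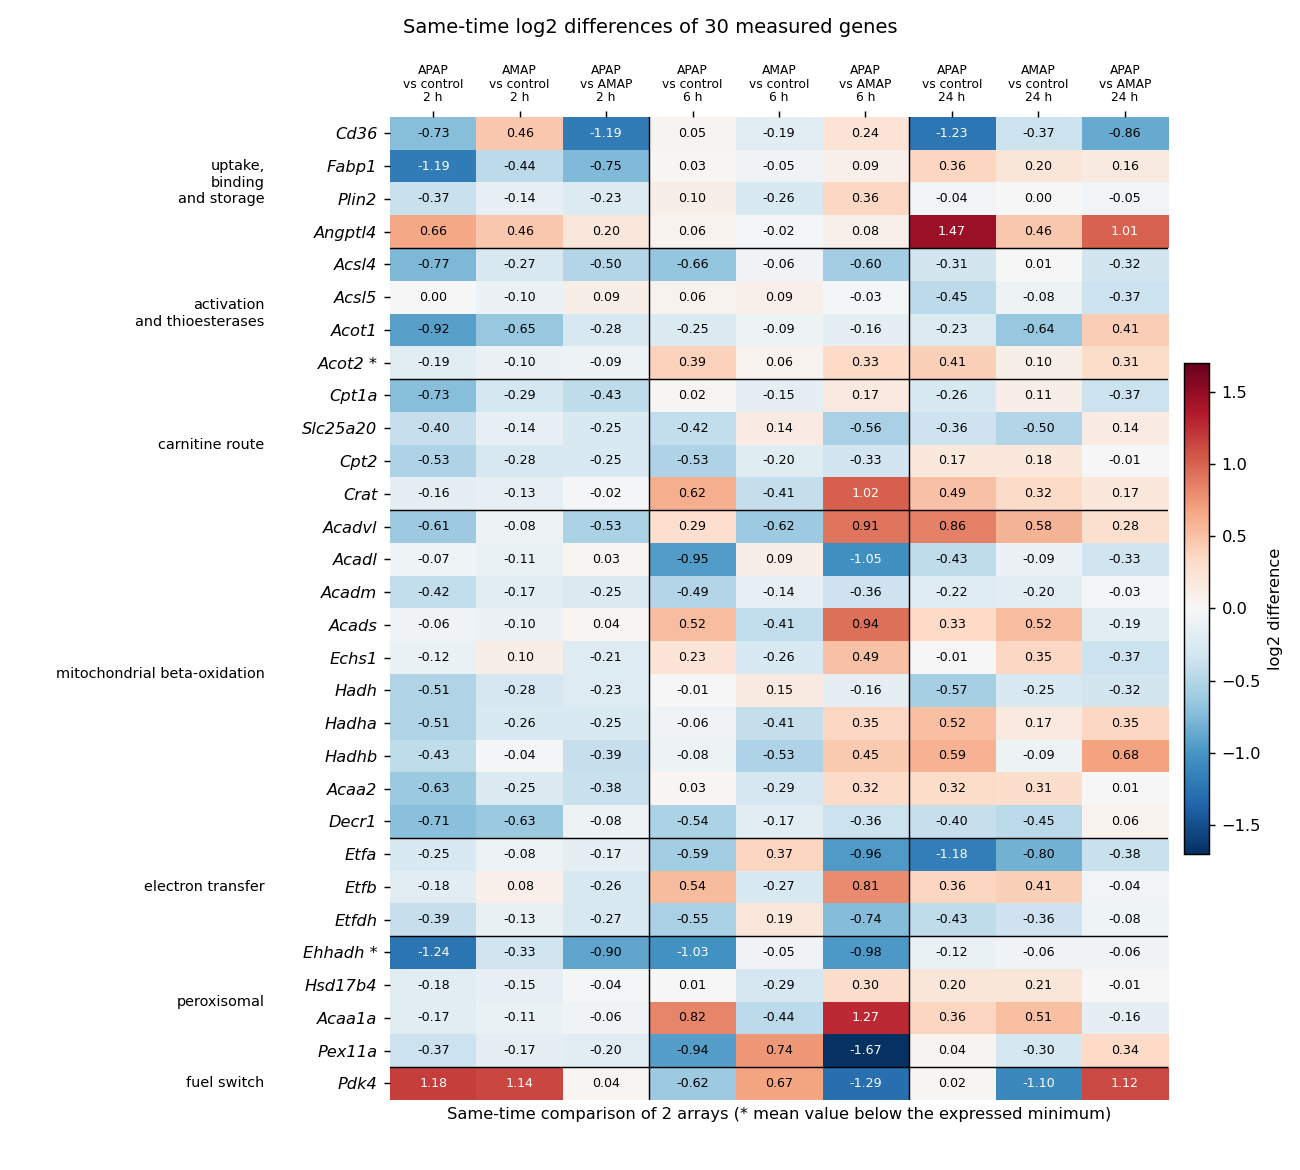
Log2 difference of the 30 measured genes (rows, grouped by role) in each of the 9 same-time comparisons of 2 arrays (columns); red is higher and blue lower in the first treatment named, and an asterisk marks the 2 genes below the expressed minimum. The APAP column at 2 h is blue in nearly every row, down to -1.19 for Fabp1 among expressed members, while the columns at 6 and 24 h mix both colours.

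Among the genes of uptake, binding and storage, Fabp1 encodes the abundant liver fatty acid binding protein. At 2 h it read 10.49 in control, 9.31 with APAP and 10.05 with AMAP. At 6 h the readings were 10.02, 10.06 and 9.97, and at 24 h they were 10.21, 10.57 and 10.41, in the same order of treatments. By this probe set the APAP 2 h array was the lowest of the 9, below every control and AMAP array, and the other 8 lay within 9.97 to 10.57. Fabp1 was thus 2.27-fold lower with APAP than control at 2 h, a difference of -1.19, and the difference from AMAP was -0.75. Its other probe set gave -1.06 and -0.65 for those comparisons. At 6 and 24 h the probe sets of Fabp1 disagreed, with 0.03 and 0.36 from the brighter and -0.98 and -0.39 from the other for APAP against control. For AMAP at 24 h they gave 0.20 and -0.91. The lowest array of the other probe set was APAP at 6 h (8.08), below APAP at 2 h (8.68).

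Fabp1 also had the closest match to the motif of a known regulator among the members' promoters, which is why its promoter is shown. Windows of 300 bases, from 250 before to 50 after the transcription start, were taken from RefSeq on build GRCm38.p6 for 27 of the 32 listed genes, 28 windows in all since Acsl1 has 2. Each was searched on both strands for AGGTCANAGGTCA, a direct repeat of the hexamer AGGTCA with 1 base between the copies, which is the form known to bind PPAR alpha with its partner RXR. Of 32851 promoter windows, 0.554% held it with at most 1 of 12 bases mismatched, and of the members only Fabp1 did. Its copy, AGGCCATAGGTCA, lies on the minus strand of the window and starts at position -67 from the start site. With at most 2 mismatches the motif was in 6 of 28 member windows (21.4%) and in 3.86% of all windows. Those 6 were Cd36 (AAGTCAGAGGCCA), Echs1 (AGGTCACGGGTCC), Etfa (AGGGCAAAGGTAA), Fabp1, Plin2 (AGGTCAGGGGTCC) and Slc25a20 (AGGTGAAAGGTCG). The single hexamer AGGTCA, part of the longer motif, was in 7 of 28 member windows and in 16.3% of all. The members' list was built from a pathway with known PPAR alpha targets, so these shares are a description. A match is not a binding site, and a window without one says only that these letters are not in it. The Fabp1 window follows, with capitals marking the match read on the plus strand, next to that of Pdk4, whose closest window, in capitals, has 4 mismatches.
Fabp1 (chr6:71199629-71199928, plus strand): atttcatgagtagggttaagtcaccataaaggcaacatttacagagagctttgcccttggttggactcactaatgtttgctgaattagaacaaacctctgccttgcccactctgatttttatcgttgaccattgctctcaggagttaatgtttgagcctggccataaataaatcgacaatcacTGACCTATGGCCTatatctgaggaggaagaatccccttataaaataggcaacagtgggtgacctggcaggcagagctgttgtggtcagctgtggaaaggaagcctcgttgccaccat
Pdk4 (chr6:5496229-5496528, minus strand): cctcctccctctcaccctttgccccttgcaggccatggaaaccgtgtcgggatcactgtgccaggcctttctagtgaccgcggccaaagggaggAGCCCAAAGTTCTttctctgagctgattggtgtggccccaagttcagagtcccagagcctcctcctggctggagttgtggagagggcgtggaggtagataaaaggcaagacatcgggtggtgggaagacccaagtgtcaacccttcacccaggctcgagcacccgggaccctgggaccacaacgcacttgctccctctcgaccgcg

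Cd36 encodes a fatty acid translocase of the plasma membrane. Its values were 5.89 in control, 5.16 with APAP and 6.34 with AMAP at 2 h. They were 6.22, 6.27 and 6.03 at 6 h, and 7.45, 6.22 and 7.08 at 24 h. APAP gave the lowest Cd36 reading at 2 h and at 24 h, but not at 6 h, where the readings lay within 0.24 of each other. The Cd36 difference between APAP and AMAP at 2 h was -1.19, or 2.28-fold, and its further probe set gave -0.87. Against control, Cd36 with APAP differed by -0.73 at 2 h and by -1.23, or 2.34-fold, at 24 h, where the further probe set gave -1.001. Cd36 is a dim gene, whose 2 h readings lie near the median of all values, and its control readings themselves spanned 5.89 to 7.45 over the times. Plin2, which coats lipid droplets, varied little, between 9.65 (APAP at 2 h) and 10.29 (AMAP at 24 h).

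Angptl4, a secreted inhibitor of lipoprotein lipase and a textbook PPAR target, went the other way. It read 9.12 in control, 9.78 with APAP and 9.58 with AMAP at 2 h. The 6 h values were 9.38, 9.45 and 9.36, and the 24 h values 8.66, 10.13 and 9.12. APAP gave the highest Angptl4 reading at each time, by only 0.06 over control at 6 h, and all 3 APAP arrays were above all 3 control arrays. The APAP difference from control was 0.66 at 2 h and 1.47, or 2.77-fold, at 24 h. Against AMAP it was 1.01 at 24 h, or 2.01-fold. The control array at 24 h was itself the lowest of the 9, with a difference of -0.72 from control at 6 h.

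In the activation group, Acsl4 encodes a synthetase that prefers arachidonic acid, and Acot1 a cytosolic thioesterase that reverses activation. Acsl4 read 8.59, 7.82 and 8.32 in control, APAP and AMAP at 2 h. The values were 8.31, 7.66 and 8.25 at 6 h and 8.41, 8.11 and 8.42 at 24 h. All 3 APAP arrays were below all 6 other arrays, and the AMAP readings overlapped with control. The APAP difference from control was -0.77, -0.66 and -0.31 at the successive times. The second Acsl4 probe set gave -1.17, -0.75 and -0.71, and the third -0.45, -1.31 and -2.33, so all 3 were lower with APAP at all times. The third probe set also gave 1.45 and -1.38 for AMAP at 6 and 24 h, where the other Acsl4 probe sets gave -0.38 to 0.04.

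Acot1 read 8.22, 7.30 and 7.57 at 2 h, 7.66, 7.42 and 7.58 at 6 h, and 8.23, 8.001 and 7.59 at 24 h, for control, APAP and AMAP. By this probe set both compounds lay below control at every time, with differences of -0.92 for APAP at 2 h and of -0.65 and -0.64 for AMAP at 2 and 24 h. At 24 h APAP was 0.41 above AMAP for Acot1. A probe set shared by Acot1 and its near-identical neighbour Acot2 read 8.40, 7.32 and 7.83 at 2 h but 8.72, 9.12 and 9.16 at 24 h. At 6 h it read 7.88, 8.30 and 7.73. At 2 h it shows the same order as Acot1, at 6 h APAP lies above control, and at 24 h both compounds do, so the Acot1 readings at 6 and 24 h are uncertain. Acot2 itself, a mitochondrial thioesterase, was below the expressed minimum, between 4.45 and 5.92. Acsl5, another long-chain synthetase, spanned 10.57 to 11.02, with its lowest value on the APAP 24 h array, a difference of -0.45 from control.

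**Figure D2:**
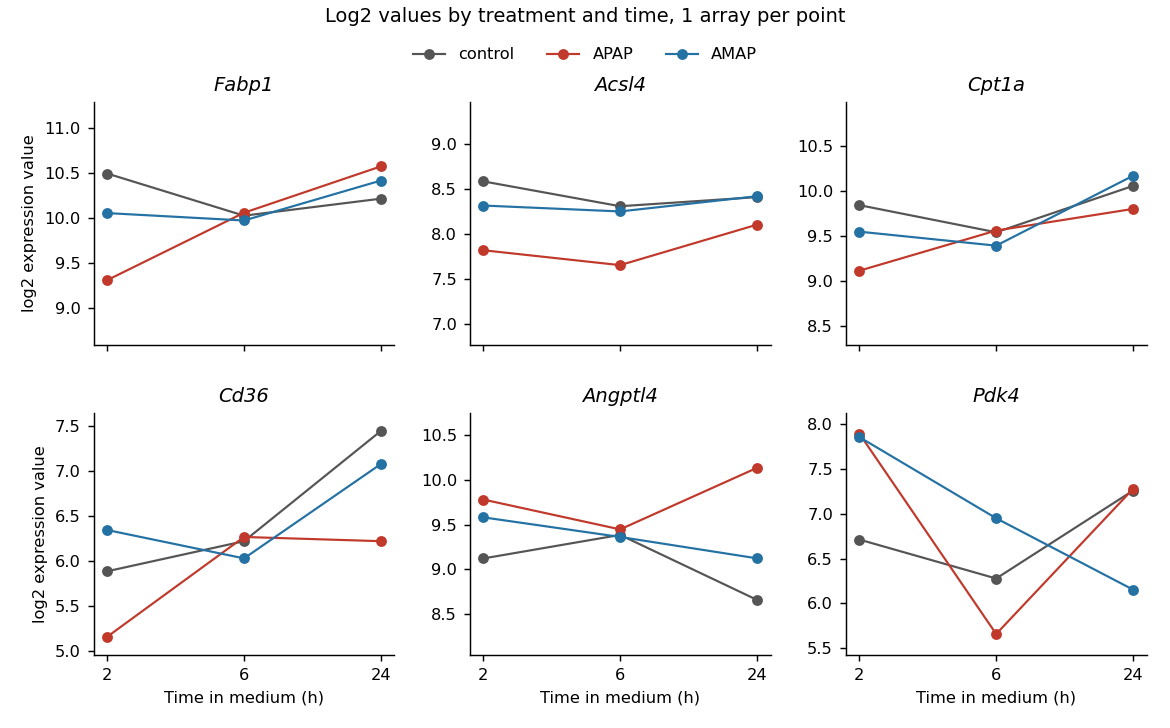
Log2 value of 6 members (one panel each) on every array, against time in hours on an evenly spaced axis, for control medium, APAP and AMAP; each point is 1 array and lines join the arrays of a treatment. Acsl4 with APAP lies under the other treatments at all 3 times, Fabp1 with APAP, by its brightest probe set, is low at 2 h, and Pdk4 changes the order of treatments from time to time.

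The carnitine route was lower as a group with APAP at 2 h, with a median of -0.46. Cpt1a, the rate-limiting step of entry, read 9.84, 9.11 and 9.55 in control, APAP and AMAP at 2 h. It read 9.54, 9.56 and 9.39 at 6 h and 10.05, 9.80 and 10.17 at 24 h. The APAP 2 h array was again the lowest of the 9 for Cpt1a, with differences of -0.73 from control and -0.43 from AMAP. The second Cpt1a probe set gave -0.24 for APAP at 2 h, the widest gap in that comparison among further probe sets above the expressed minimum. Cpt2 and Slc25a20 differed from control by -0.53 and -0.40 with APAP at 2 h, and by -0.28 and -0.14 with AMAP. Crat, a carnitine acetyltransferase that buffers acetyl-CoA, was close to control at 2 h, at -0.16 and -0.13.

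Within mitochondrial beta-oxidation, the APAP differences from control at 2 h ran from -0.71 to -0.06, with a median of -0.47. Decr1, the dienoyl-CoA reductase needed for polyunsaturated chains, read 8.31 in control, 7.60 with APAP and 7.69 with AMAP at 2 h. Acaa2, the thiolase, read 9.06, 8.43 and 8.81, and all 3 of its probe sets gave -0.59 to -0.63 for APAP. Acadvl, the very-long-chain acyl-CoA dehydrogenase of the inner membrane, read 9.98, 9.36 and 9.90. For these 3 genes the APAP reading was the lowest at 2 h, and for Decr1 the difference between the compounds was only -0.08. The subunits of the trifunctional protein, Hadha and Hadhb, differed by -0.51 and -0.43 with APAP and by -0.26 and -0.04 with AMAP. Hadh and Acadm, the short-chain hydroxyacyl-CoA and medium-chain acyl-CoA dehydrogenases, differed by -0.51 and -0.42 with APAP. Acadl, Acads and Echs1, which encode the long-chain and short-chain dehydrogenases and a hydratase, lay close to control, at -0.07, -0.06 and -0.12. With the second brightest probe set, Acadl, Crat, Decr1 and Hsd17b4 lay above control, the first 3 by probe sets below the expressed minimum, which left 22 of 28 members lower; the members' median was then -0.30.

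Hadha and Hadhb encode the 2 subunits of one complex and lie head to head, so their promoter windows overlap. The 228 bases that the RefSeq windows share, shown because they lie between the start sites of both genes, are given on the plus strand with no capitals.
Hadha and Hadhb (chr5:30155003-30155230, plus strand): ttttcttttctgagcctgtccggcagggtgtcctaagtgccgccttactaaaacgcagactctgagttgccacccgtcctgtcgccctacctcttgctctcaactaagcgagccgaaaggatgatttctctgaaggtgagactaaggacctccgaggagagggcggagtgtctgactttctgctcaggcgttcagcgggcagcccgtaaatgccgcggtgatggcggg

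The electron transfer genes Etfa, Etfb and Etfdh, for the flavoprotein subunits and the oxidoreductase that passes electrons to ubiquinone, differed by -0.25, -0.18 and -0.39 with APAP at 2 h. The median over the 3 expressed peroxisomal genes was -0.18, and whether it differs from the -0.47 of mitochondrial beta-oxidation was not tested. Hsd17b4 (the multifunctional protein of branched chains), Acaa1a (peroxisomal thiolase) and Pex11a (a peroxisome division factor and PPAR target) differed by -0.18, -0.17 and -0.37. Ehhadh, the peroxisomal bifunctional enzyme, read 5.75, 4.51 and 5.42 at 2 h, 5.43, 4.40 and 5.38 at 6 h, and 5.44, 5.32 and 5.38 at 24 h. The APAP readings of Ehhadh at 2 and 6 h were far below all 7 others, by -1.24 and -1.03 against control, but the gene is not counted because its mean was below the expressed minimum.

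Pdk4 encodes the kinase that shuts off pyruvate dehydrogenase and thereby favours fat as fuel. It read 6.71 in control, 7.89 with APAP and 7.85 with AMAP at 2 h. It read 6.28, 5.66 and 6.95 at 6 h, and 7.25, 7.27 and 6.15 at 24 h. Both compounds were above control at 2 h, by 1.18 and 1.14, or 2.26-fold and 2.20-fold, and lay within 0.04 of each other. At 6 h the compounds lay on opposite sides of control, and at 24 h APAP was level with control while AMAP differed from it by -1.10. The Pdk4 control readings spanned 6.28 to 7.25, and the treatment groups overlapped over the times.

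Counted against the threshold, 8 members were at least 1.5-fold lower with APAP than control at 2 h, and 6.01% of all expressed genes were. They were Cd36, Fabp1, Acsl4, Acot1, Cpt1a, Acadvl, Acaa2 and Decr1. Angptl4 and Pdk4 were 1.5-fold higher, against 3.75% of all genes, and Fabp1 and Pdk4 passed 2-fold, against 1.85%. With AMAP at 2 h, Acot1 and Decr1 were 1.5-fold lower (2.64% of all genes). Pdk4 was the member 1.5-fold higher (3.42%) and the one past 2-fold (1.61%). Between the compounds at 2 h, 23 of 28 members were lower with APAP (50.4% of all genes), with a median of -0.24 and -0.00 over all genes. Cd36 and Fabp1 were 1.5-fold lower (4.97%), none was 1.5-fold higher (2.55%), and Cd36 passed 2-fold (1.46%). In 20 of 28 members the order at 2 h was control, then AMAP, then APAP from high to low, an order found in 24.5% of all expressed genes. The APAP and AMAP comparisons share the control array, so a high or low control reading moves both the same way.

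**Figure D3:**
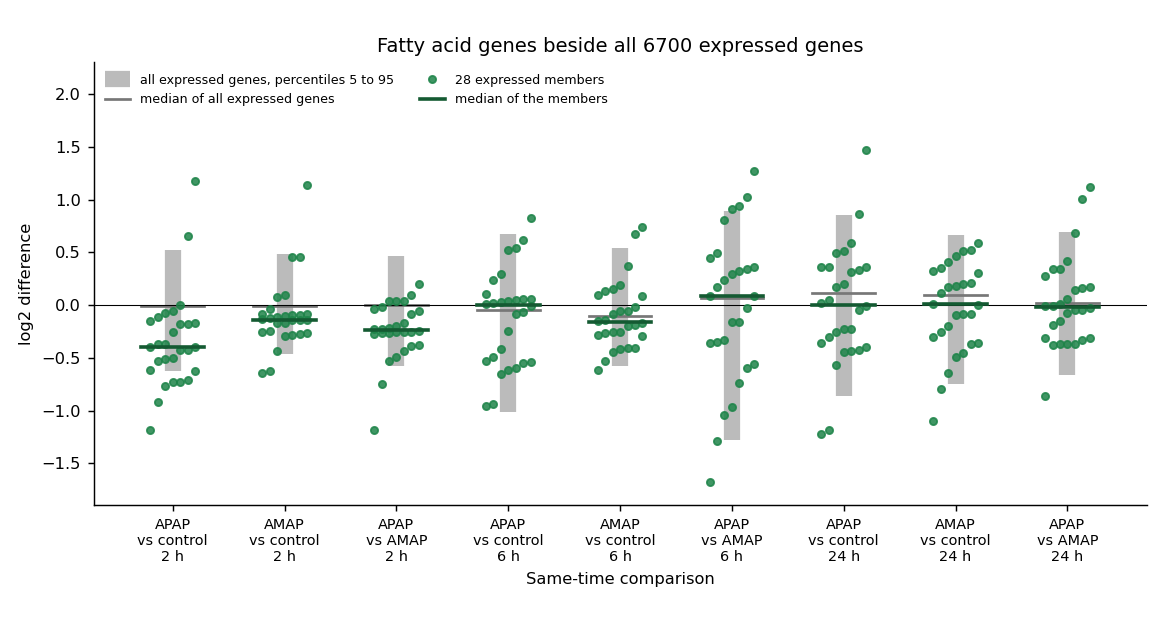
Log2 difference of each of the 28 expressed members (points, spread sideways for legibility) in each same-time comparison, with grey bars from the percentile 5 to the percentile 95 of all 6700 expressed genes and lines at both medians. The members' median is -0.40 for APAP against control at 2 h, where that of all genes is -0.01, and at 24 h both APAP and AMAP medians of the members are near 0.

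At 6 h the members no longer lay to one side with APAP. Of the 28, 14 were lower and 14 higher than control (54.4% of all genes were lower), with a median of 0.00 log2 beside -0.05 over all genes. Crat and Acaa1a were 1.5-fold higher (7.76% of all genes). Acsl4, Acadl, Etfa, Pex11a and Pdk4 were 1.5-fold lower (16.0%), and none passed 2-fold (6.13%). For AMAP, 20 of 28 were lower than control, as were 64.4% of all genes, with a median of -0.16 beside -0.10. Pex11a and Pdk4 were 1.5-fold higher (4.07%), Acadvl was 1.5-fold lower (4.45%), and none passed 2-fold (1.10%). The members' shares past 1.5-fold with APAP at 6 h were near those of all genes.

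At 6 h more genes were 2-fold apart between the compounds than between either compound and control. APAP was 1.5-fold above AMAP in Crat, Acadvl, Acads, Etfb and Acaa1a (16.6% of all genes). It was 1.5-fold below AMAP in Acsl4, Acadl, Etfa, Etfdh, Pex11a and Pdk4 (17.2%). Past 2-fold were 5 members (10.5%), Crat and Acaa1a upward and Acadl, Pex11a and Pdk4 downward. The median was 0.09 for the members and 0.07 for all genes.

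Crat read 7.83 in control, 8.45 with APAP and 7.42 with AMAP at 6 h. Its readings at 2 h were 7.61, 7.45 and 7.48, and at 24 h 7.50, 7.998 and 7.82, so the APAP 6 h array was the highest of the 9 and the AMAP 6 h array the lowest. The difference between the compounds was 1.02, or 2.03-fold.

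Acaa1a read 7.52, 8.35 and 7.08 at 6 h, 7.53, 7.35 and 7.41 at 2 h, and 7.45, 7.81 and 7.97 at 24 h. As with Crat, the extremes of Acaa1a were APAP and AMAP at 6 h, which differed by 1.27, or 2.40-fold. The Acaa1a probe set may share sequence with the paralog Acaa1b. Of the probe sets annotated to both genes, one read 8.05, 7.52 and 7.59 at 6 h and the other 7.95, 8.16 and 7.91, and neither shows the 2.40-fold gap.

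Pex11a read 6.34, 5.40 and 7.07 at 6 h, 6.88, 6.52 and 6.71 at 2 h, and 6.68, 6.72 and 6.38 at 24 h. The APAP 6 h array was the lowest and the AMAP 6 h array the highest, 1.67 apart, or 3.19-fold, the widest gap between the compounds among the brightest probe sets of the members at any time. The APAP 6 h value lay below 5.66, the median of all values. The other Pex11a probe set, whose mean was below the expressed minimum, gave -0.47 between the compounds at 6 h. At 24 h it gave -0.60, where the brightest gave 0.34. Acadl, the long-chain dehydrogenase, read 10.88, 9.93 and 10.98 at 6 h, 10.92, 10.84 and 10.81 at 2 h, and 10.90, 10.47 and 10.80 at 24 h. The APAP arrays at 6 and 24 h were the lowest for Acadl, and the other 7 lay within 10.80 to 10.98. Acadl differed by -1.05 between the compounds at 6 h, or 2.07-fold. Pdk4 differed by -1.29 there, or 2.44-fold. All 5 of these differences contain the APAP 6 h array, one of the 3 that stood apart.

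At 24 h, 14 of 28 members were lower and 14 higher with APAP than control (38.6% of all genes were lower), with a median of 0.00 beside 0.12 over all genes. Angptl4, Acadvl and Hadhb were 1.5-fold higher (13.3%), Cd36 and Etfa 1.5-fold lower (9.67%), and Angptl4, Cd36 and Etfa passed 2-fold (6.61%). With AMAP 13 were lower and 15 higher (39.1% of all genes were lower), with a median of 0.01 beside 0.10. Acot1, Etfa and Pdk4 were 1.5-fold lower (7.94%), none was 1.5-fold higher (7.88%), and Pdk4 passed 2-fold (3.16%). Between the compounds, Angptl4, Hadhb and Pdk4 were 1.5-fold higher with APAP (7.79%), Cd36 was 1.5-fold lower (6.61%), and Angptl4 and Pdk4 passed 2-fold (2.84%). Each of these counts at 24 h is 3 members or fewer. Centring each array on its median moved the median of all genes by over 0.1, from 0.12 to -0.02 for APAP against control, and that of the members to -0.13, with 16 lower and Pdk4 and Pex11a turned to the lower side.

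Etfa encodes the alpha subunit of the electron transfer flavoprotein. It read 9.74, 9.49 and 9.66 in control, APAP and AMAP at 2 h. It read 9.20, 8.61 and 9.57 at 6 h and 9.72, 8.54 and 8.92 at 24 h. The 3 lowest Etfa values came from the 3 arrays that stood apart, and the control array at 6 h was the next lowest. The 24 h differences from control were -1.18 with APAP, or 2.27-fold, and -0.80 with AMAP. Its partner subunit Etfb went the other way on the same arrays, with 10.60, 10.39 and 10.44 on them and 9.80 to 10.08 on the other 6. Acads showed the Etfb pattern, with 7.95, 7.54 and 7.72 on those arrays and at most 7.42 elsewhere.

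Acadvl read 9.98, 9.36 and 9.90 at 2 h, 10.06, 10.35 and 9.44 at 6 h and 9.82, 10.68 and 10.40 at 24 h. The APAP arrays of Acadvl were thus the lowest of all at 2 h and the highest of all at 24 h, with differences from control of -0.61 and 0.86. Hadhb, at 9.71, 10.30 and 9.62 at 24 h, was 0.59 higher with APAP, and Hadha 0.52 higher.

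Further probe sets annotated to the same genes served as a check on these values. Their positions on the transcripts were not examined, nor whether they also detect other transcripts. Above the expressed minimum there were 11 further probe sets of 9 members. At 2 h they had the sign of the brightest one in 10, 11 and 10 of 11 for APAP against control, AMAP against control and APAP against AMAP. At 6 h it was 4, 3 and 3 of 11, and at 24 h 4, 4 and 8 of 11. Over 3702 further probe sets of all genes the shares were 68.8% to 75.1% at 2 h and 57.6% to 63.0% at the later times. The second Hadhb probe set shows the size of it. It read 8.21, 7.82 and 7.85 at 2 h, 6.06, 5.39 and 8.52 at 6 h, and 8.30, 5.68 and 5.82 at 24 h, for control, APAP and AMAP. It was low on the 3 arrays that stood apart and on control at 6 h, and its difference for APAP at 24 h, -2.62, opposes the 0.59 of the brightest probe set. The second Hsd17b4 probe set, at 5.16 with APAP at 6 h against 7.39 in control, and at 6.29 and 5.80 with the compounds at 24 h against 7.89, was likewise low on the 3 arrays that stood apart, while the brightest one stayed within 8.77 to 9.15 on all 9.

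**Figure D4:**
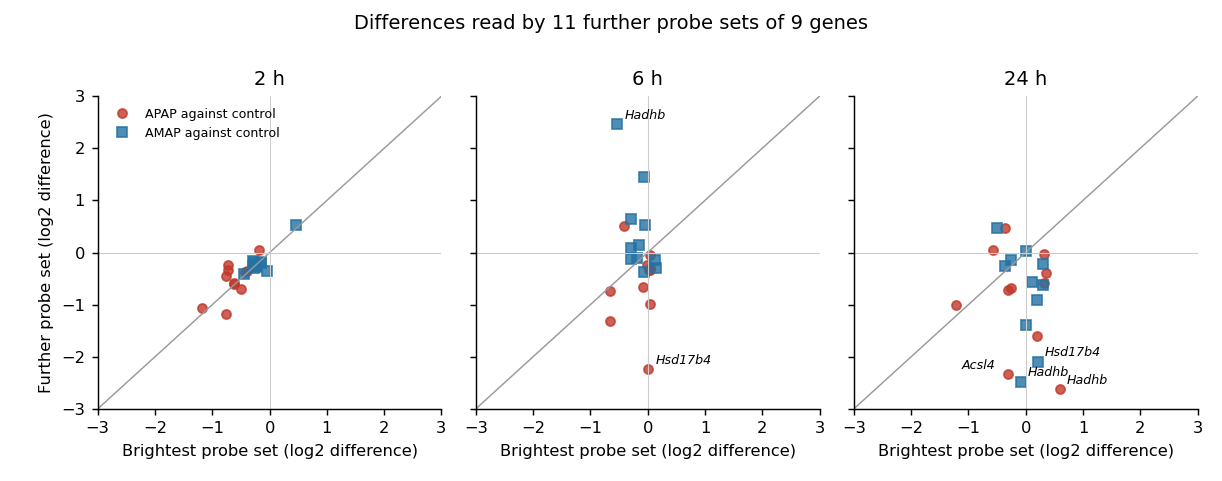
Same-time log2 difference of the brightest probe set (horizontal axis) against that of each further probe set of the same gene (vertical axis), for 11 further probe sets of 9 members and each compound against control, one panel per time; the diagonal marks equal differences, and gaps over 2 at 6 and 24 h are named. At 2 h the points follow the diagonal, with a largest gap of 0.49 for APAP, while Hadhb departs from it by 2.995 with AMAP at 6 h and by 3.22 with APAP at 24 h.

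The direction was the same at all 3 times in a minority of members. With APAP, 9 of 28 were below control at 2, 6 and 24 h, Acsl4, Acot1, Slc25a20, Acadl, Acadm, Hadh, Decr1, Etfa and Etfdh, and 14.4% of all expressed genes were. Hadh at 6 h differed by only -0.01, and turned to the higher side under cyclic loess and median centring. The second Slc25a20 probe set was above control with APAP, by 0.51 at 6 h and 0.48 at 24 h, and averaging probe sets turned Slc25a20 at both times and Decr1 at 24 h. The further Decr1 probe set lay below the expressed minimum. Angptl4 was the member above control at all times (15.7%). With AMAP, Acot1, Acadm, Hadhb and Decr1 were below control at all times (8.22%) and none was above (4.61%). Acot1 at 6 h turned with cyclic loess. The probe set shared by Acot1 and Acot2 was above control with APAP at 6 h and with both compounds at 24 h. Averaging probe sets turned Hadhb at 6 h and Decr1 at 24 h with AMAP, and the second Hadhb probe set gave 2.47 at 6 h. APAP was below AMAP at all times in 6 members, Acsl4, Cpt2, Acadm, Hadh, Etfa and Etfdh (9.93%), and above it in Angptl4 (12.0%). Decr1 read 7.84, 7.31 and 7.67 at 6 h and 8.04, 7.64 and 7.59 at 24 h, so that at each time both compounds lay below the control array.

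Some members kept whole treatments apart whatever the time. In 6 members all 3 APAP arrays lay below all 3 control arrays, Acsl4, Slc25a20, Acadl, Acadm, Hadh and Decr1, against 5.79% of all expressed genes. For Slc25a20 and Hadh this held for the brightest probe set alone. The second Slc25a20 probe set read 7.28 in control and 7.79 with APAP at 6 h, and 7.36 and 7.83 at 24 h. The second Hadh probe set and the third Acsl4 probe set also overlapped between APAP and control. Angptl4 was the member with all APAP arrays above control (6.00%). All AMAP arrays lay below all control arrays in Acot1 and Decr1 (2.42%), and above them in none (1.15%). The probe set shared by Acot1 and Acot2 overlapped. At 2, 6 and 24 h it read 7.83, 7.73 and 9.16 with AMAP against 8.40, 7.88 and 8.72 in control. All APAP arrays lay below all AMAP arrays in Acsl4, Hadh and Etfdh (3.13%), and above them in none (3.79%). Decr1, which opens the route for polyunsaturated chains, was the member in both lists below control. In Acsl4 and Hadh, APAP lay below both other treatments. The second Hadh probe set gave 0.06 between the compounds at 6 h and 0.20 at 24 h and so overlapped. The share of all expressed genes that met either pair of rules was not counted, so these joint lists are a description.

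Arrays without compound set the scale of variation between harvests. In control medium, none of the 28 members differed 1.5-fold between 2 and 6 h (6.07% of all genes). Cd36 did between 2 and 24 h (3.91%), and Cd36, Angptl4 and Pdk4 did between 6 and 24 h (9.06%). The members' median between control arrays was -0.09, -0.03 and 0.16 for those intervals, beside 0.07, -0.02 and -0.09 over all genes. These intervals hold no compound. The members' median with APAP at 2 h, -0.40 beside -0.01 over all genes, was farther from 0 than any of those 3. With AMAP at 2 h it was -0.14 beside -0.01, smaller in size than the 0.16 between control arrays.

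A test with replication was possible only across times, with limma on all 9 arrays, treatment as the factor and time as a block, which leaves 4 residual degrees of freedom and counts any treatment effect that varies with time as error. No gene of 6700 passed an adjusted p (Benjamini-Hochberg) of 0.05 in any of the 3 contrasts (0% each), and so no member did. Before adjustment, 514 genes had a p under 0.05 for APAP against control (7.67%), among them 6 members. There were 30 for AMAP against control (0.448%), with 1 member, and 285 for APAP against AMAP (4.25%), with 1 member. The 6 were Acsl4, Decr1, Etfa, Angptl4, Etfdh and Acadm. Acsl4 differed by -0.58 (SE 0.17, 95% interval -0.96 to -0.19) with APAP, with a limma p of 0.00795 and an adjusted p of 0.633. Angptl4 differed by 0.73, with an interval from 0.15 to 1.31. The remaining 4 differed by -0.55 (Decr1), -0.68 (Etfa), -0.46 (Etfdh) and -0.38 (Acadm), each with the same adjusted p of 0.633. For AMAP it was Decr1, at -0.42 with an adjusted p of 1.

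Between APAP and AMAP, para and meta isomers at the same dose and times, Acsl4 was the member with an unadjusted p under 0.05. The Acsl4 difference was -0.47 (95% interval -0.85 to -0.09), with an adjusted p of 0.869 from limma over 6700 genes. For Acot1 the difference was -0.01, with an interval from -0.48 to 0.47, which still allows a difference of about that size either way. The members' median over the times was -0.20 for APAP and -0.09 for AMAP against control, and -0.07 between the compounds, beside 0.01, -0.01 and 0.03 over all genes. Without the 2 h arrays these members' medians were -0.15, -0.03 and -0.01, beside 0.03, -0.01 and 0.05 over all genes. The members' median between the compounds was thus smaller in size without the 2 h arrays, but stayed below that of all genes.

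**Figure D5:**
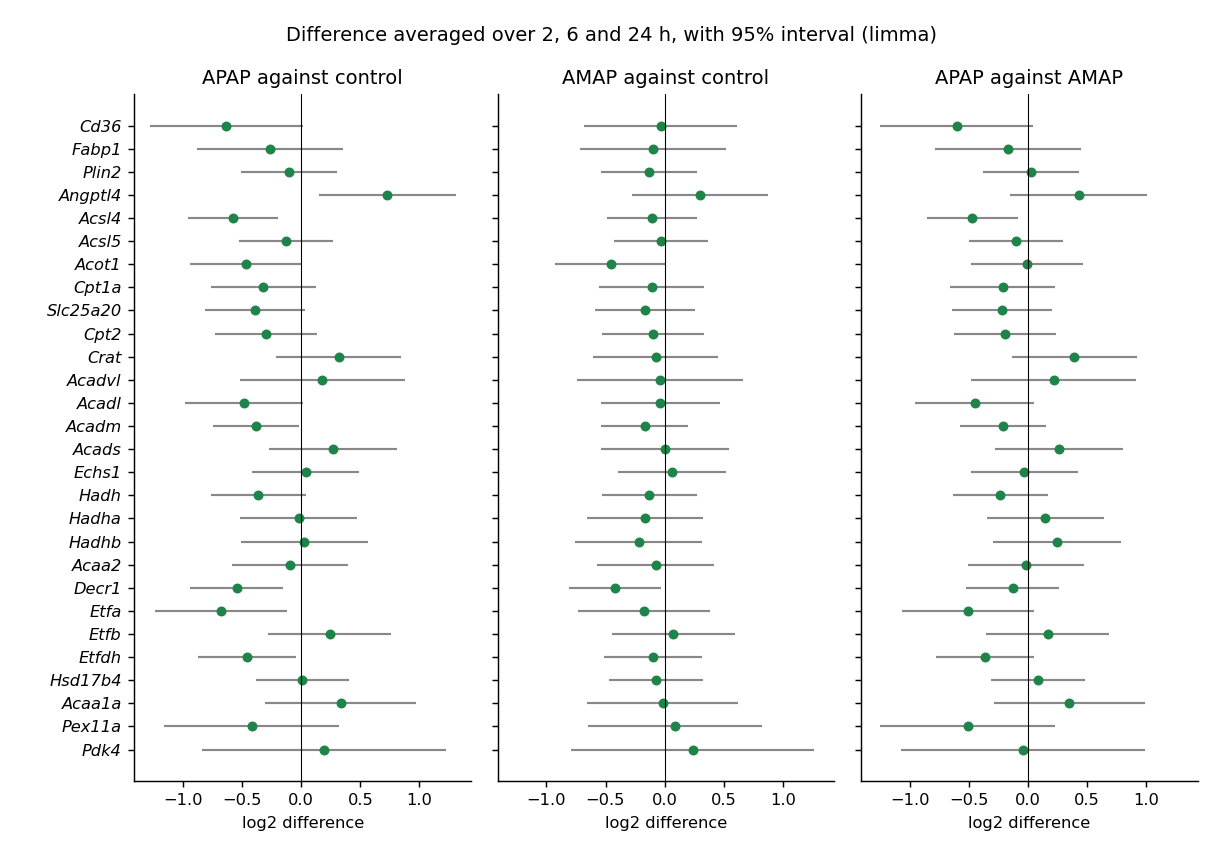
Log2 difference averaged over 2, 6 and 24 h for the 28 expressed members in the 3 contrasts, as points, with 95% intervals from the limma fit as bars. The APAP interval of Acsl4 runs from -0.96 to -0.19 and lies below 0, that of Angptl4 from 0.15 to 1.31 lies above, and most others cross 0.

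A second limma fit asked whether a treatment difference moved steadily with log2 time, with 2 residual degrees of freedom. No gene passed an adjusted p of 0.05. Before adjustment, a p under 0.05 was found in 230 genes for APAP against control (3.43%), 66 for AMAP against control (0.985%) and 134 between the compounds (2.00%). These held 1, 1 and 0 members. Fabp1 had a slope of 0.42 log2 per doubling of time with APAP (adjusted p 0.994), and Pdk4 one of -0.64 with AMAP (adjusted p 1).

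The wider pathway was described with 92 further genes, of which 80 were measured and 48 expressed, 17 of oxidation and ketogenesis, 20 of lipid handling and 11 regulators. With APAP at 2 h, 41 of the 48 were lower than control and 7 higher (52.0% of all genes were lower), with a median of -0.34. Of the 48, 16 were 1.5-fold lower (6.01% of all genes) and 3 were 1.5-fold higher (3.75%). All 17 genes of oxidation and ketogenesis were lower, with a median of -0.41. With AMAP 33 were lower (50.9% of all genes), with a median of -0.13, and 3 were 1.5-fold lower (2.64%). The largest differences were in Cideb, which acts in lipid droplet and lipoprotein handling, and in Dgat2, which makes triglyceride. Cideb read 8.01 in control, 6.50 with APAP and 7.20 with AMAP at 2 h, and Dgat2 8.31, 6.89 and 8.06. Slc27a2, a fatty acid transporter and synthetase, was lowest with AMAP, with a difference of -0.94 from control. At 6 and 24 h, 25 and 23 of the 48 further genes were lower with APAP, beside 54.4% and 38.6% of all expressed genes.

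Ppara, the gene of PPAR alpha, was itself measured by 1 probe set. It read 6.92, 8.002 and 6.88 in control, APAP and AMAP at 2 h, 6.39, 6.68 and 7.94 at 6 h, and 7.19, 7.70 and 6.45 at 24 h. The highest readings were APAP at 2 h and AMAP at 6 h. Ppara with APAP read above control at each time, while with AMAP it lay below control at 2 and 24 h. Ppara was 1.12 higher with APAP than AMAP at 2 h, while 23 of the 28 members were lower. At 6 h the widest differences with APAP were in Crot, a peroxisomal carnitine acyltransferase, at -2.06, and in Apob, the structural protein of very-low-density lipoprotein, at -1.64. With AMAP at 6 h they were in Ppara, at 1.55, and in Slc27a4, at -0.77. At 24 h Acox3 and Acaa1b, both with means below the expressed minimum, were 1.67 and 1.49 higher with APAP, and Vldlr and Fabp5 were -1.06 and -1.03 with AMAP. The 6 and 24 h values with APAP and the 24 h values with AMAP again come from arrays that stood apart. Fabp5 was lowest on those 3 arrays, at 9.77 to 10.25. Ppard, Pparg and Ppargc1a, with means of 3.91, 3.78 and 3.16, were below the expressed minimum.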

How the data were processed

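RNA of TAMH cultures was hybridised to 9 Affymetrix mouse arrays. The authors deposited log2 values per probe set; the submitters' processing notes name RMA and Affymetrix Expression Console. The version of the software is not given in the sources used here, nor is whether the arrays were normalized together. RMA equalises the arrays' distributions and hides a change in total RNA. Groups were taken from the sample titles, 1 array each, so the number of arrays limits the precision. No label says that the arrays come from separate experiments, so p-values measure only the spread between these samples, which may be technical.

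The members, lists and tests were chosen with earlier results of these data known. Of 22690 probe sets, 64 controls were left out. The platform annotation gave 1 gene symbol for 20380, several for 691 and none for 1555, and the brightest probe set with 1 symbol represented a gene. Expressed genes had a mean of at least 5.67. Same-time log2 differences were counted at 1.5-fold and 2-fold. Treatment was fitted over all arrays in limma 3.58.1 (R 4.3.3), with the harvest time as a block, and slopes on log2 time were added in a second fit. Both fits were tested on simulated data of 6700 genes, where the shared fit found 8% of changes of 0.5 log2, 32% of 1 and 90% of 2 for APAP. Alternatives were cyclic loess, median centring, other probe set choices, no filter, trended and robust variances, a fit without the time block, fits of the 6 arrays compared, leaving out each time and linear time.

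Every member is named, those past 2-fold at any time with all 9 values. Of the further pathway genes, up to 2 per comparison with the largest difference are named, and the values of Ppara, Ppard, Pparg and Ppargc1a were added after they were seen. Promoter windows were RefSeq's on GRCm38.p6, read with Python 3.11.15. The array files name no genome build.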

Additional observations from a re-analysis of the deposited data

Results flagged for a closer look

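In 2 members the same contrast reached 1.5-fold in opposite directions at different times. The Acadvl difference between APAP and control was -0.61 at 2 h and 0.86 at 24 h. For Pdk4 it was 1.18 at 2 h and -0.62 at 6 h. The Pdk4 difference between AMAP and control was 1.14 at 2 h, 0.67 at 6 h and -1.10 at 24 h, and that between APAP and AMAP was -1.29 at 6 h and 1.12 at 24 h. Of these values, all at 6 and 24 h except that of AMAP against control at 6 h contain an array that stood apart. With 1 array per time these differences between times were not tested on their own, and the limma slopes on log2 time passed no adjusted p for either gene.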

How the results depend on the processing

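The medians at 2 h kept their sign and moved by less than 0.10 log2 under all 5 alternatives. Of the medians at 6 and 24 h, those of AMAP against control at 6 h and of APAP against AMAP at 24 h kept their sign, and the other 4 did not. Averaging a gene's probe sets gave medians of -0.17 for APAP against control, -0.053 for AMAP against control and -0.13 for APAP against AMAP at 6 h, and of -0.030 for APAP and -0.072 for AMAP against control at 24 h. With the second brightest probe set they were -0.17 and -0.047 for APAP against control and against AMAP at 6 h, and -0.022 for APAP against control at 24 h. Cyclic loess gave -0.072 for APAP against control at 24 h, and median centring -0.13, with -0.090 for AMAP. The cause was not tested.

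Of 90 alternative counts of members past 1.5-fold, 18 moved by over 1.5 times, as did 19 of 90 past 2-fold. For APAP at 2 h the 8 lower members became 5 when probe sets were averaged. No limma alternative brought a gene past an adjusted p of 0.05. Without the time block, which pairs the arrays of a harvest time (no replicate block), unadjusted counts were 511, 20 and 296 genes, against 514, 30 and 285 with it. Leaving out each time in turn gave 374 to 506, 6 to 217 and 207 to 404, with the 6 for AMAP without the 2 h arrays and the 217 without the 6 h arrays. The members' median for APAP against control was then -0.29 to -0.15. Signal over background limits Ehhadh, Acot2, Cd36 and the APAP 6 h reading of Pex11a.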
